A study of Mus musculus with 6 samples.

Results

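The open chromatin elements of the *Zbtb16* locus in astrocytes of mouse primary visual cortex (V1) were described from all ATAC-seq peaks whose summit lay within 200 kb of the *Zbtb16* transcription start site (TSS) or in the gene body. In all, 302 of the 1116429 peaks in 6 libraries met this rule, and they merged into 66 of the 185015 regions of the genome. Of these 66 regions, 46 had a peak in at least 2 libraries and were tested, out of 140360 tested regions in all, and 25 had a peak in all 6 libraries.

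All animals were *GR* fl/fl mice, which carry loxP sites in the gene for the glucocorticoid receptor (GR), and all received an AAV2/5 virus at P0 to P1. In 3 GR-KO libraries the virus held the cassette GfaABC1D-Cre-T2A-EGFP-KASH-4x6T, and in 3 GR-con libraries it carried ΔCre, an inactive Cre, in place of Cre. The GfaABC1D promoter drives the transgene in astrocytes, and 50000 DRAQ5+/GFP+ nuclear events were sorted from V1 at P21 for each library, from tissue pooled over 3 to 4 mice. The groups thus differ in active Cre, and any effect of Cre other than the loss of GR cannot be told apart from it here.

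GR is a ligand-activated transcription factor that binds DNA as a dimer at 2 half-sites placed 3 bases apart and opposite in direction. *Zbtb16* encodes ZBTB16 (also called PLZF), a transcriptional repressor with a BTB domain that recruits corepressors and zinc fingers that bind DNA, and it is widely known as a gene that glucocorticoids induce. ATAC-seq cuts and tags DNA that is free of nucleosomes, so a peak marks an open promoter or enhancer-like element. In sorted nuclei, fewer nuclei with an open element and less opening in each nucleus cannot be told apart.

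The gene is annotated on the minus strand of chromosome 9 (mm10, chr9:48654297-48836222, ENSMUSG00000066687.5, GENCODE M21) and spans 181926 bp. It has 7 exons, with an intron 2 of 88181 bp, an intron 3 of 26094 bp and an intron 4 of 51957 bp. Regions are named here by the distance of their strongest summit from the TSS, with positive values running into the gene. The upstream side holds the serotonin receptor genes *Htr3a* and *Htr3b*, the antisense gene *Gm32335* and the start of *Usp28*, a deubiquitinase gene.

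The sequences below are the summits of the regions that passed a test by rank of −log10 p or of fold within a library or held a full GR motif, shown because the results turn on them. They are from the GRCm38 (mm10) reference, plus strand, and capitals mark the motif GNACANNNTGTNC (N is any base), searched on both strands within 200 bases of each region's strongest summit. The motif reads the same on both strands and holds GR half-sites 3 bases apart. The −58.1 kb sequence is chr9:48894182-48894382, the +86.9 kb sequence is chr9:48749253-48749453 and the +95.8 kb sequence is chr9:48740254-48740473. The +98.5 kb sequence is chr9:48737583-48737783, the +99.6 kb sequence is chr9:48736481-48736681 and the +112.3 kb sequence is chr9:48723694-48723984.
−58.1 kb: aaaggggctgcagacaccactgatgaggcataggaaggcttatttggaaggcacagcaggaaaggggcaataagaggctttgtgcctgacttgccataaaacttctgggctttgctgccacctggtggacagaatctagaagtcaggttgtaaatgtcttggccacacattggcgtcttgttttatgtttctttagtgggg
+86.9 kb: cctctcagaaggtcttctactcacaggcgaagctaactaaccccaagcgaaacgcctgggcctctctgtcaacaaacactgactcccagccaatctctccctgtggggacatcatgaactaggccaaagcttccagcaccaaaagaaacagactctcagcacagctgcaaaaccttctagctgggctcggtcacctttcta
+95.8 kb: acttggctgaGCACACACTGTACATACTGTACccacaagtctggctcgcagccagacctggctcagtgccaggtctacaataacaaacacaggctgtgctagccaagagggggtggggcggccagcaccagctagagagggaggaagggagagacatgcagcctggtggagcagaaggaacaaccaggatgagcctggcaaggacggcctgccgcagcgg
+98.5 kb: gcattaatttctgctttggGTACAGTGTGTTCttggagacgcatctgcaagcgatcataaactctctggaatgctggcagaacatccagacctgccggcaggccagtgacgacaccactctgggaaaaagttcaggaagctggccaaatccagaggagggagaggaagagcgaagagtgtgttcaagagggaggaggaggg
+99.6 kb: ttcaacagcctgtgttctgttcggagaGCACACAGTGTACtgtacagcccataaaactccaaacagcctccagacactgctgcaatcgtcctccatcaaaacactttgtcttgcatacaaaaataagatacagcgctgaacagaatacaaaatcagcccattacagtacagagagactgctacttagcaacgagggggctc
+112.3 kb: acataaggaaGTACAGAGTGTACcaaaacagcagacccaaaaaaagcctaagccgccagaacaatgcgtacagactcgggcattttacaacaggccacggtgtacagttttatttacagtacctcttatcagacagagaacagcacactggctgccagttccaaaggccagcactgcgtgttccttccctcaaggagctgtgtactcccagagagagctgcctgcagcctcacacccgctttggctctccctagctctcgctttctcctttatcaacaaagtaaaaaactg

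All of the regions with the full motif lay in intron 3, between +95.8 and +112.3 kb. They were 4 of the 46 tested regions (8.70%), against 1.05% of all tested regions, and the stretch at +95.8 kb held 2 overlapping matches. The matches were gcacacactgtac and gtacatactgtac at +95.8 kb, gtacagtgtgttc at +98.5 kb, gcacacagtgtac at +99.6 kb and gtacagagtgtac at +112.3 kb. The stricter form GAACANNNTGTTC was in 0 of the 46 windows and in 0.113% of all. The half-site TTGGCA of nuclear factor I (NFI) was in 14 windows (30.4%), close to the 30.8% of all tested regions, and its full site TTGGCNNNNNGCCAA was in 0, against 0.0912%. The AP-1 motif TGANTCA was in 8 windows (17.4%), against 11.8% of all. Matches are descriptions of the sequence and not of binding.

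The 6 lists held between 179462 and 198929 peaks, each with the ratio of its summit to the local background (fold enrichment) and the −log10 of a p-value for it. A Poisson model was assumed here, because no header states the model of the peak caller. Under it, these values give a count piled up at each summit. The counted units are called fragments here, although no header states whether whole fragments or read ends were counted. The most frequent background in a list, which follows depth, was between 4.28 and 4.92 fragments. Depth thus differed little, with GR-con replicate 3 the deepest at 1.15 times the lowest. Promoter peaks were found for 4 of 6 astrocyte markers in every library, with a median percentile of −log10 p over the list of markers of 84 to 87.8, and *Aldh1l1* and *Aqp4* had no peak within 1 kb of the annotated start. The same median was 16.1 to 41.4 for 6 neuronal markers, of which 3 to 4 had a peak and *Gad1* had none, but *Snap25* stood at 85.8 to 89.6, inside the range of the astrocyte markers, and *Syt1* at 47.8 to 62.9. It was 0 for the oligodendrocyte and for the microglial markers, of each of which 1 to 2 of 5 had a peak, although *Mbp* was at 25 to 63.3 and *P2ry12* at 58.7 to 72.9. For 4 endothelial markers the median was 13.5 to 17.4 in GR-con and 6.15 to 13.4 in GR-KO, without overlap. *Cldn5* was at 33.9, 49.9 and 34.8 in GR-con and 12.3, 26.8 and 27.7 in GR-KO, *Flt1* overlapped between the groups, *Pecam1* and *Tek* had no peak, and the part of endothelial nuclei in the results was not tested. Loss of GR itself is not read out by peak lists and was not checked.

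The deposited lists held fewer peaks of the locus in GR-KO than in GR-con, with the groups apart in the gene body and overlapping outside it. The window had 59, 65 and 50 peaks in GR-con replicates 1, 2 and 3 and 44, 42 and 42 peaks in GR-KO replicates 1, 2 and 3. The groups did not overlap, and GR-con replicate 3 was the GR-con library nearest to GR-KO. The means were 58 ± 7.55 and 42.7 ± 1.15 peaks (SD, n = 3), a difference of −15.3 (exact permutation test, two-sided, p = 0.1, the smallest that 3 against 3 libraries can give). With every list shortened to its top 179462 peaks, the length of the shortest, the window had 55, 59 and 44 peaks in GR-con and 44, 41 and 42 in GR-KO, so GR-con replicate 3 then tied with GR-KO replicate 1 (exact permutation test, two-sided, p = 0.2).

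Within the gene body the peaks numbered 44, 47 and 30 in GR-con and 24, 22 and 25 in GR-KO. Outside it they numbered 15, 18 and 20 in GR-con and 20, 20 and 17 in GR-KO (exact permutation test, two-sided, p = 0.7). The gene body counts were apart, while the counts outside overlapped, and the difference between these parts was not tested. With the shortened lists the gene body counts were 41, 41 and 25 in GR-con and 24, 21 and 25 in GR-KO, again with a tie. Peaks covered 13312, 13643 and 9655 bases of the gene body in GR-con and 8162, 7435 and 8045 bases in GR-KO.

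**Figure D1:**
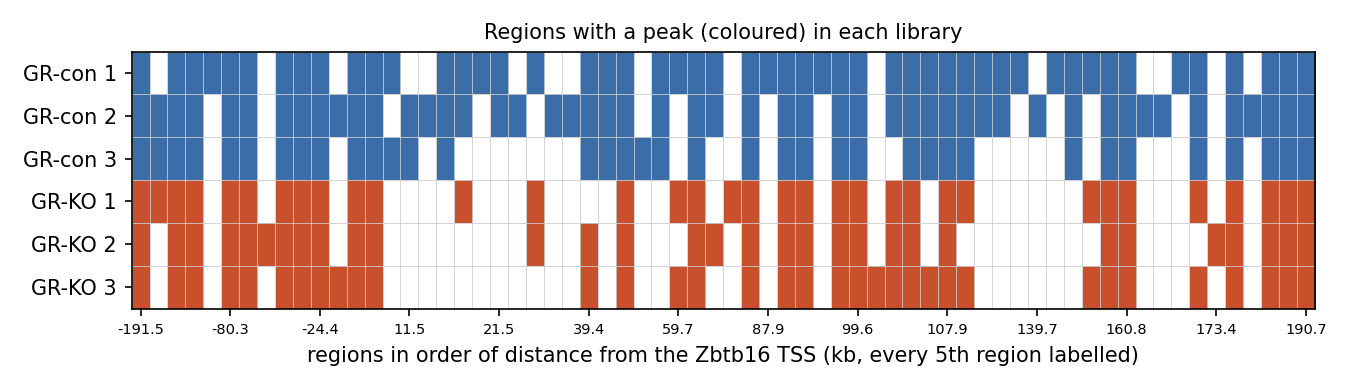
Presence of a peak in each of the 66 regions (columns, ordered by distance from the *Zbtb16* TSS in kb) in the 6 libraries, coloured where the library had a peak. The 25 regions present in all 6 libraries form the full columns, and all but 1 of the 25 regions with no GR-KO peak lie between +1.1 and +178.3 kb.

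Of the 66 regions, 25 had no peak in any GR-KO library, as did 15.7% of all 185015 merged regions, and 4 had none in any GR-con library, as did 14.2% of all. Regions with a peak in all 3 GR-con and no GR-KO library numbered 4 of the 46 tested, where such regions made up 1.19% of all tested. The opposite pattern was found at 0 of the 46, against 0.628% of all. These 4 regions, at +13.0, +40.7, +53.8 and +142.7 kb, were all intronic and all weak.

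At +40.7 kb (intron 2, chr9:48795420-48795870) the −log10 p was 7.07, 6.08 and 5.96 in GR-con. At +13.0 kb (intron 2, chr9:48823080-48823303) it was 3.37, 8.09 and 7.21. At +53.8 kb (intron 2, chr9:48782301-48782640) it was 5.48, 3.51 and 6.58. The region at +142.7 kb (intron 4, chr9:48693262-48693686) was the most uneven, with 10.4 and 11.4 in replicates 1 and 2 and 2.76 in replicate 3. None of the 4 passed the adjusted threshold by rank of −log10 p, with adjusted p from 0.189 to 0.326 (limma), where a library without a peak was given the lowest rank. A further 20 regions had a peak in 1 library only, 16 of them in GR-con (12.3% of all merged regions) and 4 in GR-KO (11.9% of all). Their −log10 p was 2.53 to 9.5 (median 3.84). Of those in GR-con, only the region at +53.5 kb was in replicate 3, and the others were in replicates 1 and 2.

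**Figure D2:**
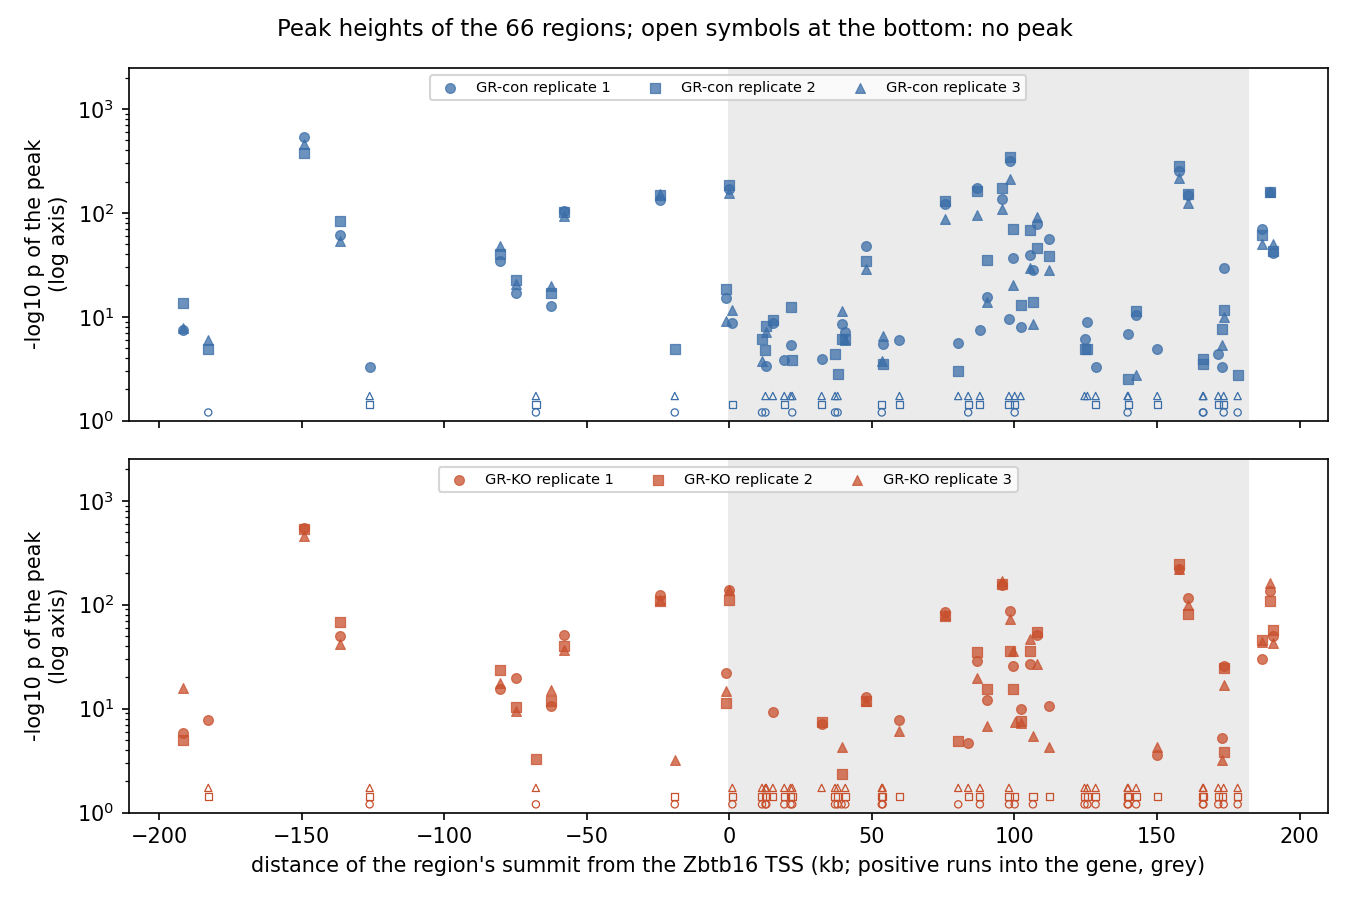
Height of each region's peak as −log10 p (log axis) against the distance of its summit from the *Zbtb16* TSS in kb, for GR-con (top) and GR-KO (bottom), with 1 symbol per library and open symbols at the bottom where a library had no peak. The cluster between +75.7 and +112.3 kb reaches 343 in GR-con, and its point at +98.5 kb falls to between 35.6 and 86.6 in GR-KO.

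Peaks were compared by ranking them within their own library and turning the ranks into normal scores, so a score difference of 1 is a shift by 1 SD of the normal distribution. By rank of −log10 p, 4 of the 46 tested regions were lower in GR-KO at an adjusted p under 0.05 (limma), where 1.12% of all tested regions were, and 0 were higher, where 1.05% were. At an unadjusted p under 0.05, 13 were lower and 0 higher, where 6.84% and 7.5% of all were. Every GR-KO library ranked below every GR-con library at 15 of the 46 regions, against 8.74% of all, and above at 0, against 9.05%. The score difference was below 0 at 36 of the 46 regions, with a median of −0.16, while over all tested regions it was below 0 at 48.8% with a median of 0.01. The 13, the 15 and the 36 each include the 4 regions with a peak in all 3 GR-con and no GR-KO library. The 36 also include 5 regions with a peak in 2 GR-con and no GR-KO library. A library without a peak was tied lowest, so the direction at these regions was fixed by the missing peaks.

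By rank of the fold, 1 of the 46 was lower (0.214% of all), at −58.1 kb, and 1 was higher (0.110% of all), at +95.8 kb. At an unadjusted p under 0.05, 12 were lower and 1 higher, where 6.3% and 6.44% of all were. Every GR-KO library ranked below every GR-con library at 11 regions (7.84% of all) and above at 8 (9.67% of all). The 12 and the 11 include the 4 regions with a peak in all 3 GR-con and no GR-KO library. With a missing peak given a width of 0, the width was lower in every GR-KO library than in every GR-con library at 11 regions (9.86% of all). It was higher at 1 (4.09% of all). The 11 include the regions at +13.0, +40.7, +53.8 and +142.7 kb, which had no GR-KO peak. Those at +39.4 and +112.3 kb, without a peak in 1 GR-KO library, are also among them, so the count mixes absent and narrower peaks.

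Fragments at the summit, divided by the genome background of the library (summit pileup), could be compared at the 25 regions with a peak in all 6 libraries. The summit pileup was lower in GR-KO at 12 of them (limma, adjusted p under 0.05), where 4.23% of all 90301 such regions were lower, and higher at 0, where 2.07% were higher. At an unadjusted p under 0.05, 15 were lower and 0 higher, where 12.1% and 5.87% of all were. The median log2 difference was −0.44 in the window and −0.68 over the 12 gene body regions, against −0.05 over all regions. The 12 regions that fell comprised all 4 measured in intron 2, 3 of 5 in intron 3, 1 of 3 further into the gene and 4 of 13 outside it, and their GR-KO level was 0.25 to 0.737 of that in GR-con. Without GR-con replicate 2 the count was 5, and without the other libraries in turn it was 8 to 14. For these pileups limma drew the variance of each region toward a trend over all regions. The standard errors and p-values given for them are thus not the spread of the 3 libraries of a group alone. The pileup fit was not repeated without the variance trend.

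The local background fell over the same stretch. Every GR-KO library lay below every GR-con library at 16 of the 25 regions, where 14.0% of all were so placed, and above at 0, against 5.39% (backgrounds within a relative 0.001 of each other were taken as tied). Its median over the 12 gene body regions was 3.88, 3.74 and 2.89 times the genome background in GR-con and 1.88, 2.00 and 1.80 times in GR-KO. The groups did not overlap, and GR-con replicate 3 again lay nearest to GR-KO (exact permutation test, two-sided, p = 0.1). Neighbouring regions draw on the same flanking fragments, so these values are not independent of each other or of the summits.

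**Figure D3:**
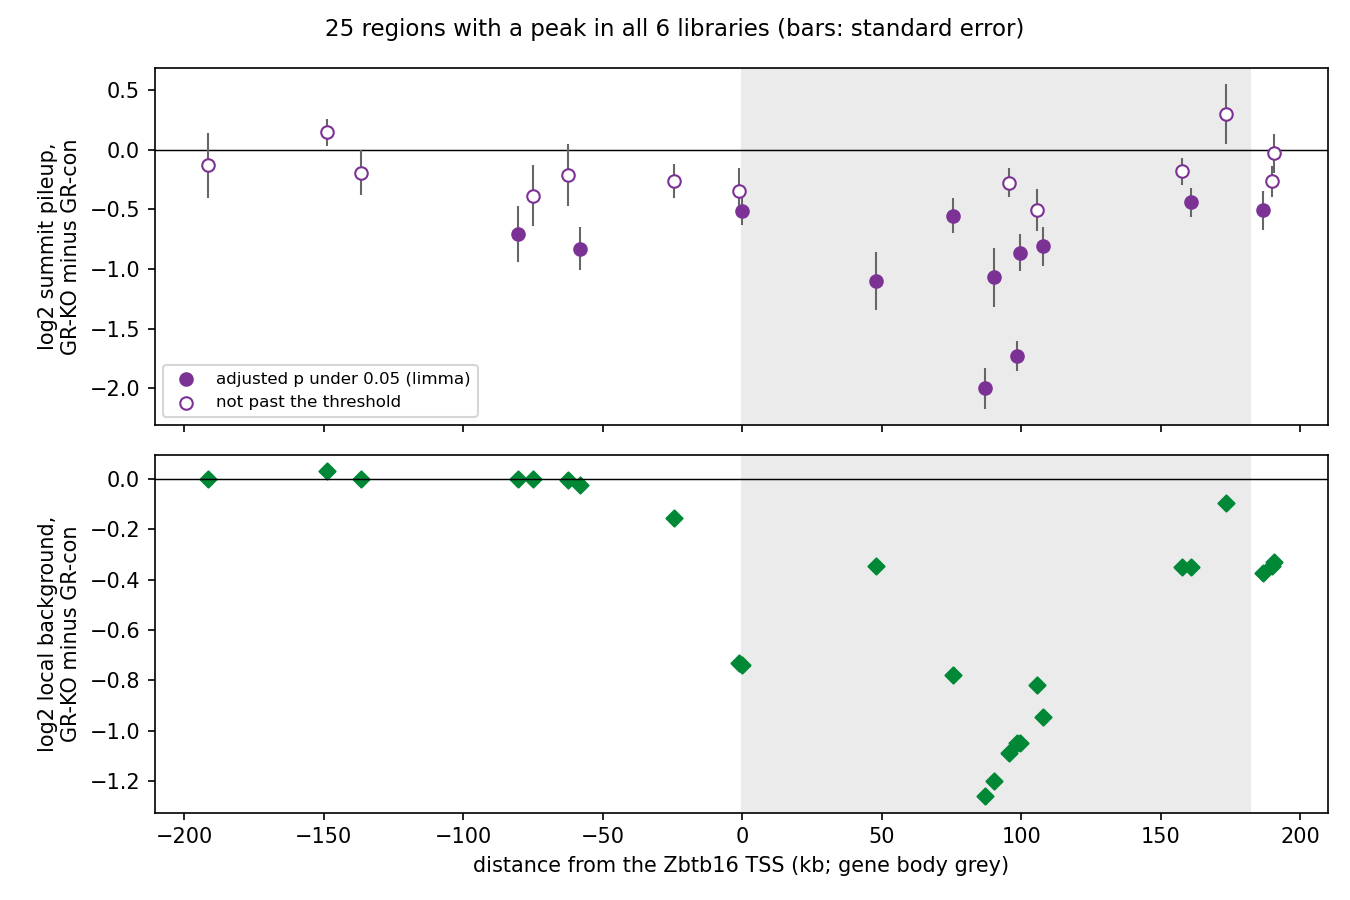
Log2 difference (GR-KO minus GR-con) of the summit pileup (top, with the standard error from limma, filled where the adjusted p was under 0.05) and of the local background (bottom) at the 25 regions with a peak in all 6 libraries, against distance from the *Zbtb16* TSS in kb. The summit pileup difference reaches −2.00 at +86.9 kb and −1.73 at +98.5 kb, and that of the local background reaches −1.26.

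GR-con replicate 3 had the lowest summit pileup of the GR-con libraries at 20 of the 25 regions and at 11 of the 12 in the gene body, against 53.4% of all such regions. Its part in the differences was not tested beyond leaving it out, which gave 14 regions lower by summit pileup in place of 12 and 3 by −log10 p in place of 4.

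At the promoter, the region over the TSS (−0.1 kb, chr9:48835570-48836780, spanning exon 1 of both annotated transcripts) had a peak in every library. Its −log10 p was 170, 186 and 156 in GR-con and 139, 111 and 138 in GR-KO. The groups did not overlap, but the score difference of −0.14 (standard error 0.06) did not pass the threshold (limma, adjusted p = 0.298). Its summit pileup was 64.3, 70.5 and 51.3 times the genome background in GR-con and 43.2, 40.4 and 46 times in GR-KO. Every GR-KO library was thus lower, to 0.702 of the GR-con level (log2 difference −0.51, standard error 0.12, limma adjusted p = 0.00143). The fold at the same summit was 9.58, 9.60 and 9.62 in GR-con and 11.8, 9.93 and 11.3 in GR-KO, each GR-KO library above each GR-con library, while the local background was 6.26 times the genome background in GR-con and 3.72 times in GR-KO (means of 3).

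Intron 2, the longest intron, held 22 regions, 14 of them tested, and 12 of the 22 had no GR-KO peak. Its tallest element in GR-con was at +86.9 kb (chr9:48749157-48749704). The −log10 p there was 175, 162 and 95.8 in GR-con and 28.4, 34.9 and 19.5 in GR-KO. The groups were well apart, with GR-con replicate 3 between the other GR-con libraries and GR-KO. The score difference was −0.79 (standard error 0.09, limma adjusted p = 2.62e-05).

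At this summit the pileup was 47.5, 47.3 and 25.2 times the genome background in GR-con and 9.7, 11.7 and 7.83 times in GR-KO. All GR-KO libraries were lower, to 0.25 of the GR-con level (log2 difference −2.00, standard error 0.17, limma adjusted p = 2.93e-25). The peak itself was 516, 548 and 345 bp wide in GR-con and 276, 287 and 267 bp in GR-KO. Its printed summit sequence held no full GR motif, and neither did the rest of the window searched. The neighbour at +75.7 kb (chr9:48760215-48760867) was lower by summit pileup, with a log2 difference of −0.55 (standard error 0.15, limma adjusted p = 0.00779). Its −log10 p was 121, 129 and 87.4 in GR-con and 85, 78.2 and 79.2 in GR-KO, without overlap, but the ranks overlapped and the adjusted p was 0.388 (limma).

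Intron 3 held 10 regions, 8 of them tested, and the tallest element of the gene body by the mean −log10 p of GR-con, although not in GR-con replicate 3. That element, at +98.5 kb (chr9:48737253-48737938), had a −log10 p of 316, 343 and 209 in GR-con and 86.6, 35.6 and 72.8 in GR-KO. The lowest GR-con library was well above the highest GR-KO library, and the score difference was −0.91 (standard error 0.09, limma adjusted p = 8.32e-06). Its summit pileup was 112, 122 and 66.5 times the genome background in GR-con and 34.4, 21.5 and 33.4 times in GR-KO. No library of one group reached the other, and the GR-KO level was 0.301 of that in GR-con (log2 difference −1.73, standard error 0.12, limma adjusted p = 3.37e-36). The GR motif printed above lies at chr9:48737602-48737614, 75 bp from the summit. Both this region and the one at +86.9 kb passed the threshold by −log10 p with any 1 of the 6 libraries left out, and both missed it without the variance trend of limma (adjusted p = 0.0693 and 0.0622) and when regions were replaced by summit sites of fixed width (0.0679 and 0.0546).

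A nearby element toward the TSS differed between measures. At +95.8 kb (chr9:48740047-48740682), which holds the overlapping GR motif matches, the −log10 p was 137, 175 and 109 in GR-con and 155, 159 and 170 in GR-KO. These values overlapped, with a score difference of 0.13 (standard error 0.07, limma adjusted p = 0.382). Its fold was 6.80, 7.48 and 7.11 in GR-con and 12.1, 12.5 and 12.1 in GR-KO. Every GR-KO library was higher by fold, and the score difference was 0.51 (standard error 0.07, limma adjusted p = 0.0348), a call that was lost when any 1 library was left out (limma adjusted p from 0.108 to 0.169), with the replicate number as a block (0.155) and without the variance trend (0.0563).

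The summit pileup at +95.8 kb was 66.9, 79 and 44.4 times the genome background in GR-con and 47.6, 50.9 and 54.8 times in GR-KO. The GR-KO libraries lay inside the GR-con range, with a log2 difference of −0.27 (standard error 0.12, limma adjusted p = 0.183). The local background there was 9.63, 10.4 and 6.06 times the genome background in GR-con and 3.74, 3.86 and 4.32 times in GR-KO. The divisor of the fold was thus lower in every GR-KO library. In the whole window, 7 regions present in all 6 libraries had a higher rank of fold in every GR-KO library, and of these 6 had a summit pileup difference below 0, 6 had a lower local background in every GR-KO library and 0 had a higher rank of −log10 p in every GR-KO library.

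**Figure D4:**
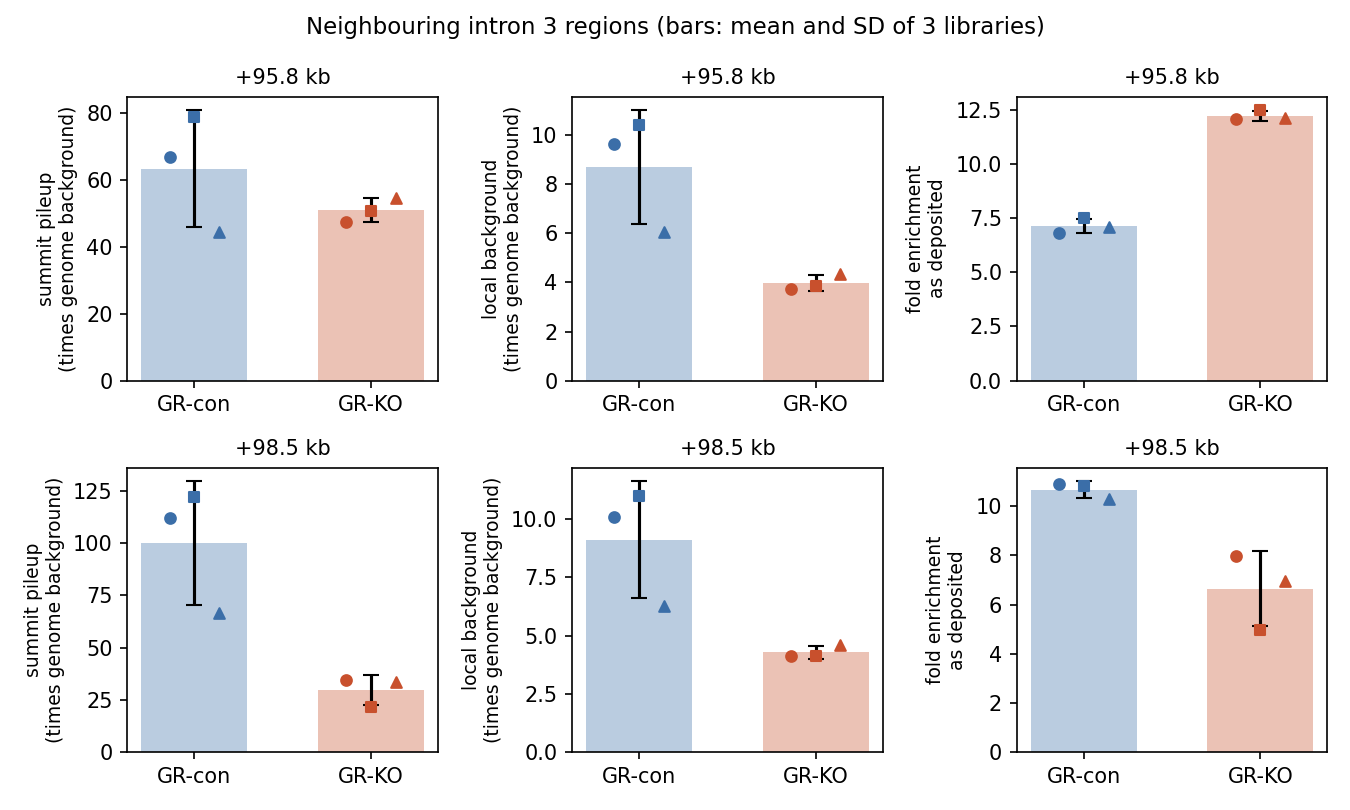
Summit pileup (left), local background (middle), both in multiples of the library's genome background, and fold enrichment as deposited (right) at +95.8 kb (top) and +98.5 kb (bottom), with bars for the mean and SD of 3 libraries and 1 symbol per library. At +95.8 kb the fold is higher in GR-KO, between 12.1 and 12.5, while the local background falls from 8.69 to 3.97, and at +98.5 kb all 3 values are lower in GR-KO.

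Another motif-bearing element, at +99.6 kb (chr9:48736334-48736745), had overlapping −log10 p values of 36.6, 70.3 and 20.3 in GR-con and 25.9, 15.3 and 35.7 in GR-KO (limma, adjusted p = 0.675). Its summit pileup was 35.2, 50.1 and 19.5 times the genome background in GR-con and 17.8, 14.2 and 22.6 times in GR-KO. These also overlapped, because GR-con replicate 3 lay below GR-KO replicate 3, although the log2 difference of −0.86 passed the threshold (standard error 0.16, limma adjusted p = 6.1e-06).

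The element with a GR motif farthest into intron 3, at +112.3 kb (chr9:48723375-48724193), had a −log10 p of 56, 38.3 and 28 in GR-con and of 10.7 and 4.3 in GR-KO replicates 1 and 3, with no peak in GR-KO replicate 2. All GR-con libraries were above all GR-KO libraries. The score difference was −1.13 (standard error 0.23, limma adjusted p = 0.0101), with GR-KO replicate 2 given the lowest rank. Its motif is at chr9:48723704-48723716, 174 bp from the summit. Leaving out any library other than GR-KO replicate 1 ended the call (limma adjusted p from 0.0586 to 0.194), as did leaving out the variance trend (0.218) and using summit sites (0.183).

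At +106.5 kb (chr9:48729559-48729879) the −log10 p was 28.4, 13.8 and 8.44 in GR-con and 5.49 in GR-KO replicate 3, the only GR-KO library with a peak. The groups did not overlap, and the score difference of −1 (standard error 0.30) missed the threshold (limma, adjusted p = 0.0899), with the libraries without a peak given the lowest rank. The window here held an NFI half-site and an AP-1 motif and no full GR motif.

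**Figure D5:**
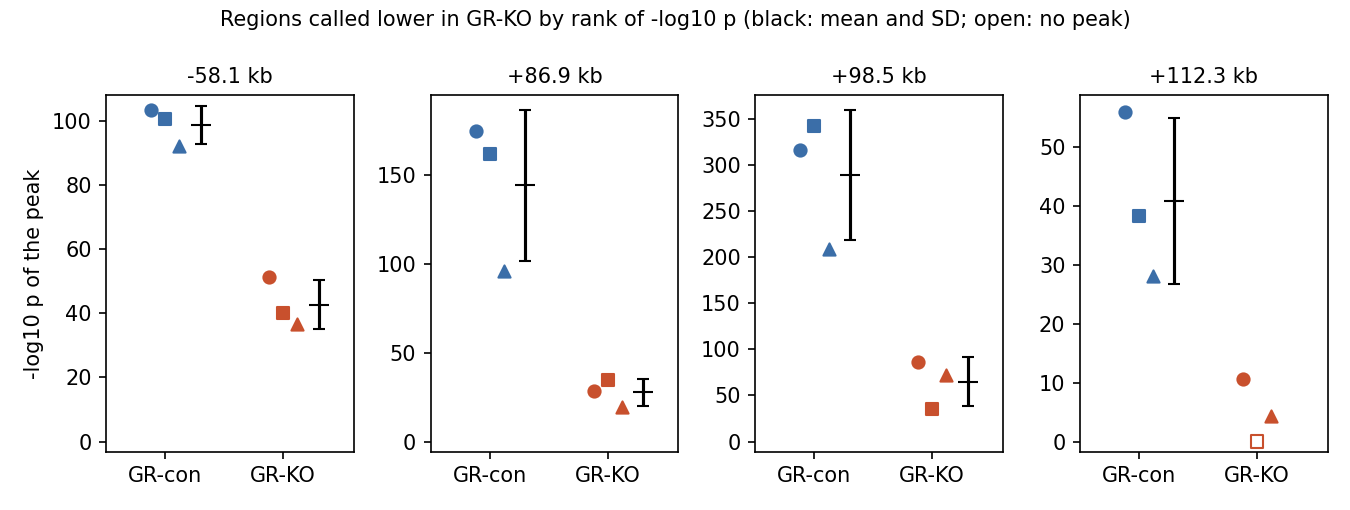
Peak height as −log10 p in each library at the 4 regions lower in GR-KO by rank of −log10 p, with the mean and SD of 3 libraries in black where all 3 had a peak and an open symbol where a library had none. In each panel every GR-con library lies above every GR-KO library, and GR-con replicate 3 (triangle) is the lowest of its group.

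Further into the gene, the tall element at +157.6 kb in intron 4 (chr9:48678310-48679464) differed little between the groups. Its −log10 p was 251, 284 and 217 in GR-con and 219, 248 and 222 in GR-KO, and the values overlapped. The score difference was −0.04 (standard error 0.06, limma adjusted p = 0.815), and the summit pileup was 0.882 of the GR-con level (log2 difference −0.18, standard error 0.12, limma adjusted p = 0.438). Introns 4 to 6 held 16 regions, 8 of them in 1 library only and 10 without a GR-KO peak. The +160.8 kb neighbour was the 1 region of this stretch with a lower summit pileup, at 0.737 of the GR-con level (log2 difference −0.44, limma adjusted p = 0.0111).

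Upstream, the element at −58.1 kb (chr9:48893983-48894600), which lies between *Zbtb16* and the genes *Gm32335* and *Htr3a*, was lower in GR-KO by both measures. The annotated start of *Gm32335*, at −60.2 kb, is much closer to this element than that of *Zbtb16*. Its −log10 p was 103, 101 and 92.2 in GR-con and 51.3, 40.2 and 36.6 in GR-KO, and its fold was 19.8, 18.9 and 17.1 in GR-con and 11.9, 10.4 and 9.73 in GR-KO. The libraries of each group lay close together and the groups far apart. The score difference was −0.37 by −log10 p (standard error 0.07, limma adjusted p = 0.00503) and −0.69 by fold (standard error 0.07, limma adjusted p = 0.0193).

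The local background at −58.1 kb was at or near the genome background in every library, 1 to 1.06 times, and the summit pileup was 24.2, 24.1 and 20.3 times it in GR-con and 14.3, 12.6 and 11.7 times in GR-KO. The GR-KO level was 0.563 of that in GR-con (log2 difference −0.83, standard error 0.18, limma adjusted p = 0.00036). The call by −log10 p was lost without GR-con replicate 1 (limma adjusted p = 0.0861) or replicate 2 (0.0779), without the variance trend (0.118) and with summit sites (0.0907). The call by fold was lost without any 1 library (limma adjusted p from 0.072 to 0.163) and with the replicate block (0.106). The window around its summit held no GR, NFI or AP-1 motif of those searched.

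The tallest region of the window, at −149.0 kb (chr9:48984719-48985831), holds the start of *Usp28*. Its −log10 p was 542, 374 and 460 in GR-con and 542, 535 and 457 in GR-KO, overlapping, and the score difference was 0.13 (standard error 0.13, limma adjusted p = 0.698). The region over the start of *Htr3a* (−74.9 kb, chr9:48910920-48911302) had a −log10 p of 17, 22.4 and 20.5 in GR-con and 19.8, 10.4 and 9.54 in GR-KO, also overlapping (limma adjusted p = 0.658). Beyond the 3′ end of *Zbtb16*, 3 regions were present in all 6 libraries, and by rank of −log10 p the groups overlapped at each of them. At +186.8 kb the −log10 p itself did not overlap, at 69.6, 61.4 and 50.4 in GR-con and 29.7, 46 and 43.4 in GR-KO (limma adjusted p = 0.429 by rank). Its summit pileup was lower in GR-KO, at 0.704 of the GR-con level (log2 difference −0.51, standard error 0.16, limma adjusted p = 0.0361).

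The 32 tested regions not covered by the rule for named regions had score differences by −log10 p from −0.69 to 0.54. Of these, 24 were below 0, including the 5 with a peak in 2 GR-con and no GR-KO library, and 8 were above. Their adjusted p values were 0.0589 to 0.991 (limma). The lowest of these was at +48.0 kb in intron 2 (chr9:48788009-48788337), where the −log10 p was 47.9, 34.3 and 29 in GR-con and 13, 12 and 11.8 in GR-KO. The groups there did not overlap, and the summit pileup had a log2 difference of −1.10 (standard error 0.24, limma adjusted p = 0.000462).

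The count of 4 regions lower by −log10 p was set beside windows of the same kind around other genes. Of 21938 protein-coding genes, 111 (0.506%) had at least 4 such regions in their window, the median gene had 0 and the highest had 14. Of 12 other widely known glucocorticoid-inducible genes, *Fkbp5*, which encodes a GR cochaperone, had 7, *Ddit4* and *Tsc22d3* (GILZ) had 4 each, 9 had at least 1, and *Per1*, *Sgk1* and *Zfp36* had 0. Over the windows of the 12 genes, 24 of 550 tested regions (4.36%) were lower and 4 were higher. Windows of neighbouring genes overlap and hold different numbers of regions, so these counts are a description.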

How the data were processed

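ATAC-seq peak lists from 3 GR-con and 3 GR-KO libraries were used, each called by the authors on 1 library with the ENCODE ATAC-seq pipeline (version 2.2.0; build mm10 per the labels). Each deposited row is 1 summit (rows share an interval for 25.5 to 30.2% of a list) and holds, as deposited, a capped score, a fold enrichment (a ratio to the local background) and −log10 values of a p-value and a q-value; the authors' p threshold was 0.01.

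Peaks overlapping by at least 1 bp were merged across libraries, a region taking each library's highest value. Ranks within a library were turned into normal scores, tied lowest without a peak, and compared with limma 3.58.1 (R 4.3.3; variance trend, no replicate block, two-sided, Benjamini-Hochberg over all 140360 regions with a peak in at least 2 libraries). Each peak's fold and p-value were solved for a whole-number summit pileup and a local background under an assumed Poisson model of the peak caller (whole for all peaks within a relative 0.0001 of the −log10 p). The most frequent background of a list served as its genome background. The scripts were tested on simulated data.

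Named regions were the region over the TSS, regions called in either test, regions with a peak in every library of 1 group and none of the other, the 3 tallest, those of the 5 largest falls or rises among regions whose groups did not overlap, and those with the full GR motif. The regions at −74.9, +48.0, +75.7, +160.8 and +186.8 kb were named after their values were seen. The locus, the lists of glucocorticoid-inducible genes and markers, and the motifs were chosen with earlier results of these data known. The alternatives were other peak thresholds, list lengths, region definitions, filters, the variance trend, the replicate number as a block, each library left out, and summit pileups scaled in 2 ways; the pileup comparison without each library, the gene body counts in shortened lists and the description of the local background were added after seeing the data. Same-numbered libraries did not deviate together, so the numbers were not taken as pairs. Their correlations were −0.00173 to 0.0354 by −log10 p and −0.00177 to 0.0332 by fold. Gene positions are from GENCODE M21.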

Additional observations from a re-analysis of the deposited data

How the results depend on the processing

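By rank of −log10 p the window held 4 regions lower and 0 higher in GR-KO. The count of lower regions was 1 without the variance trend (at +40.7 kb, limma adjusted p = 0.0158, in place of the 4), 0 with summit sites of fixed width, 12 and 10 with summit pileups scaled by background and by median, and between 2 and 4 when 1 library was left out, being 2 without GR-con replicate 1 or 2; it was 4 with the replicate block and with the other alternatives. With summit sites −58.1, +86.9, +98.5 and +112.3 kb had adjusted p of 0.0907, 0.0546, 0.0679 and 0.183 (limma), and the cause was not tested. The count of higher regions was 0 throughout.

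By rank of fold the window held 1 region lower and 1 higher. Lower regions numbered 2 without the variance trend, with a peak in all 6 libraries and with summit sites, 12 and 10 by the pileups, 0 with the replicate block and 0 when any 1 library was left out; higher regions numbered 0 without the variance trend, with the block, by either pileup and when any 1 library was left out. Over the genome the block gave 0 and 0 calls by fold, against 301 lower and 154 higher, and 890 and 680 by −log10 p, against 1571 and 1470; leaving out 1 library gave 0 to 22 lower and 0 to 8 higher by fold and 289 to 845 and 300 to 480 by −log10 p. Summit sites gave 497 and 282 by −log10 p, the missing trend 803 higher by −log10 p and 1021 and 717 by fold, and the pileups 3816 and 2643 lower and 1870 and 4393 higher, scaled by background and by median.

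By summit pileup the 12 lower regions became 10 when scaled by median and 5 to 14 when 1 library was left out, with 5 without GR-con replicate 2, and 0 were higher in each. The difference in peaks per library was −15.3, and −16.3 with a window of 100 kb, −10.7 with q-values under 0.01, −10.3 with equal lists, where the groups touched (exact permutation p = 0.2 in place of 0.1), and −19.3 to −11.8 with 1 library left out.

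Of 253 values of named regions under the alternatives, 6 changed direction, and none of these 6 passed the threshold under the alternative. Among them, 2 were of the fold score at +95.8 kb, which was called in the main setting (limma adjusted p = 0.0348). At +95.8 kb the pileups scaled by background and by median gave −0.274 and −0.183 where both ranks gave a rise, at −149.0 kb the difference was −0.0519 without GR-con replicate 2, in a range up to 0.28 with 1 library left out, and at +99.6 kb it was 0.0111 without the same library, in a range from −0.297. Regions without a peak in all 6 libraries had no pileup value. With 3 libraries a group, an exact test cannot go below 0.1, and peaks under the threshold of the authors are not in the lists, so a missing peak is not an absence of open chromatin.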
